A study of Mus musculus with 8 samples.

Results

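Lamin-A knockout and wild-type macrophages that had received no stimulus were compared by the open chromatin mapped in each, using 4 ATAC-seq peak lists on chromosomes 1 to 19. Any peaks sharing 1 bp or more across these lists were joined, which gave 61067 regions. A region was gained when both knockout (KO) lists held a peak in it and neither wild-type (WT) list did, and lost in the reverse case. By this rule 563 regions were gained, which is 0.922% of the 61067, and 4673 were lost, which is 7.65%. A further 37884 regions (62.0%) held a peak in all 4 lists and were compared by rank. The remaining regions were called in 1 list, or in a mix of lists from both genotypes. Just outside the rule, 2285 regions were called in 1 KO and no WT list and 980 in both KO and 1 WT list, while 7269 were called in 1 WT and no KO list and 5315 in both WT and 1 KO list.

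The cells were bone-marrow-derived macrophages, cultured for 7 days, and the KO cells are labelled as knocked out for Lamin-A. The series has 8 libraries, 2 for each combination of genotype (wild type or Lamin-A knockout) and treatment (none, or 6 h of lipopolysaccharide, LPS), and the 4 LPS libraries served here as libraries that took no part in choosing regions. The source label of the LPS samples names both LPS and untreated. They were taken as LPS-treated, as in their titles, and every LPS value rests on that. All cells were frozen in medium with 5% DMSO and thawed before the transposase step. The labels do not give the targeted part of Lmna, the strain, sex or age of the mice, or the animals behind each replicate, so p-values over libraries measure the spread between these samples, which may be technical.

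Lamin-A is an intermediate filament protein that forms, with Lamin-C from the same gene and the B-type lamins, a mesh under the inner nuclear membrane. The mesh gives the nucleus stiffness, links it to the cytoskeleton through the LINC complex, and holds long stretches of gene-poor, silent chromatin at the nuclear edge. In macrophages, accessible promoters and enhancers carry the binding sites of lineage factors such as PU.1 and C/EBP, and of signal-dependent factors such as NF-kB, AP-1 and the interferon-activated factors, which bind the interferon-stimulated response element (ISRE).

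The promoters below carry results described further on. Ifit3, Isg15, Gbp2 and Irgm1 are interferon-induced genes whose promoter peak was called in all 4 lists and ranked lower in KO. Gbp5 and Tgtp2, interferon-induced GTPases, had a lost promoter region, and the start of an Nfkbid transcript, which encodes a nuclear IkB protein, lay in a gained one. Each line gives the 250 bases before an annotated start, 5′ to 3′ along the gene, from RefSeq (GRCm38.p6, the assembly behind mm10). Capitals mark the ISRE letters (GAAA, any 2 bases, GAAA) on either strand in the interferon-induced genes, with overlapping matches run together, and the PU.1 letters GAGGAAGT on either strand in Nfkbid.
Ifit3: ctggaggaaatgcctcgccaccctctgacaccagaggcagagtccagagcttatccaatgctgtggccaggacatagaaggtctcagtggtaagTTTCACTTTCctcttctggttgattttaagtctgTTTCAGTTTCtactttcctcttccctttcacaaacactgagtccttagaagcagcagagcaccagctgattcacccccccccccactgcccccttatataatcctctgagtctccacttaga
Isg15: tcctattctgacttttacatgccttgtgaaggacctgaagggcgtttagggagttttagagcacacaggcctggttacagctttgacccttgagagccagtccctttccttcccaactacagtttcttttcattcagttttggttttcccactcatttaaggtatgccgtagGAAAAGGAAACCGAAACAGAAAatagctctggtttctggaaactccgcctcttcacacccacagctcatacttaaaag
Gbp2: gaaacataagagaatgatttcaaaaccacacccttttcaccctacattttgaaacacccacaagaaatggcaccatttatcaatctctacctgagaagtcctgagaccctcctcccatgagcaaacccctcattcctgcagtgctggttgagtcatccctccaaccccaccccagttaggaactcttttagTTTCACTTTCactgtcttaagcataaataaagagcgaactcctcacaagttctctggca
Irgm1: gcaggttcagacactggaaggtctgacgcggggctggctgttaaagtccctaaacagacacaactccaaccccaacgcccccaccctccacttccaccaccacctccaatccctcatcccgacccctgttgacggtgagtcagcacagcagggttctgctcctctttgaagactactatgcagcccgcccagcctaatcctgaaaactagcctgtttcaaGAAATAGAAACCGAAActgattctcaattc
Gbp5: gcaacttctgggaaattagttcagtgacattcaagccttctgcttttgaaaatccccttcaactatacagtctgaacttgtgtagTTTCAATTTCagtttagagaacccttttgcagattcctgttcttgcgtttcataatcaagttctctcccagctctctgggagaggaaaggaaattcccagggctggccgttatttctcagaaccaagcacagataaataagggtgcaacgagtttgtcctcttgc
Tgtp2: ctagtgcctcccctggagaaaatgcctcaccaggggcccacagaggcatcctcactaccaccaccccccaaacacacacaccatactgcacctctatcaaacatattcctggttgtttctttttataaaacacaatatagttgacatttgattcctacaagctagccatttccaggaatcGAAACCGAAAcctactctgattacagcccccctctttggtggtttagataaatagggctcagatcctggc
Nfkbid: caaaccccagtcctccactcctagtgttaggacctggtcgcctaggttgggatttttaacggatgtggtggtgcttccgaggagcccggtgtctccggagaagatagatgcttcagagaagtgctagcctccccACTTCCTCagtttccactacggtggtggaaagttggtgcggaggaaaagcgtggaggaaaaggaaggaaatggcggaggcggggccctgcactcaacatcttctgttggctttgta

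The stretches lay at chr19:34583279-34583528 on the plus strand for Ifit3, chr4:156200819-156201068 on the minus strand for Isg15, chr3:142620413-142620662 on the plus strand for Gbp2 and chr11:48871421-48871670 on the minus strand for Irgm1. That of Gbp5 lay at chr3:142496684-142496933 on the plus strand, that of Tgtp2 at chr11:49064213-49064462 on the minus strand, and that of Nfkbid at chr7:30423025-30423274 on the plus strand. Isg15 held 3 overlapping ISRE matches, the farthest starting 78 bases before the transcript, Ifit3 held 2 and Gbp2 held 1. The PU.1 letters of Nfkbid started 116 bases before the transcript and lay outside its gained region, chr7:30423199-30423423. Over all 31387 listed promoter windows of 300 bases, 3.46% held the ISRE letters and 3.25% the PU.1 letters. A match of letters is a description of the sequence and not a bound site.

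All 4 lists carried a peak at an end of each of the 10 macrophage genes checked (Spi1, Cebpa, Csf1r, Adgre1, Cd68, Itgam, Mertk, Cd14, Fcgr1 and Lyz2). Of 9 B cell markers, 0 to 2 had such a peak in a list, and of 13 T and NK cell markers 3 did in each of the 4. Neutrophil and mast cell markers had 2 of 12 in each list, dendritic cell markers 2 to 4 of 10, erythroid and megakaryocyte markers 2 or 3 of 9, and stromal and endothelial markers 2 or 3 of 12. Read totals were not used here, so depth is unknown and a region without a peak is one not called or not kept by the authors, which does not show closed DNA.

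The KO lists were shorter and covered less of the genome. WT libraries 1 and 2 held 52869 and 53956 peaks and KO libraries 1 and 2 held 43667 and 46568, so that the KO mean of 45117.5 ± 2051 (SD, n = 2) lay 15.5% below the WT mean of 53412.5 ± 769 (SD, n = 2). Covered length was 22.7 and 23.8 Mb in WT and 18.4 and 18.9 Mb in KO. Peaks at a gene end, within 1 kb of either end of a protein-coding gene, made up 21.7% and 21.6% of the WT lists and 24.3% and 23.7% of the KO lists. The genotypes did not overlap in any of these measures, and the exact two-sided permutation p was 0.333 for each, the smallest that 2 libraries against 2 can give. Peaks were also shorter in KO over the same regions: in the 37884 regions called in all 4 lists, the median summed peak length was 441 and 452.5 bp in WT and 403 and 397 bp in KO. Of these regions, 55.4% were shorter in both KO libraries than in both WT libraries and 4.54% were longer (exact permutation p of the library medians = 0.333).

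Regions that WT held and KO lacked were weak peaks. Within a list, each peak was given the percentile of its -log10 p, from 0 for the weakest to 100 for the strongest, and the lost regions had a median percentile of 17.4 in the WT lists. The regions called in both WT lists were divided by strength into 10 groups of equal size. Of the weakest group 48.5% were absent from both KO lists, of group 3 13.5%, of group 5 0.898% and of the strongest 0.0209%. The gained regions were also weak, with a median percentile of 16.0 in the KO lists, and 8.09% of the weakest group of the regions called in both KO lists were absent from both WT lists. The counts depended on the length of the lists: when each list was shortened to the same number of strongest peaks, 1440 regions were gained and 1560 lost.

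**Figure D1:**
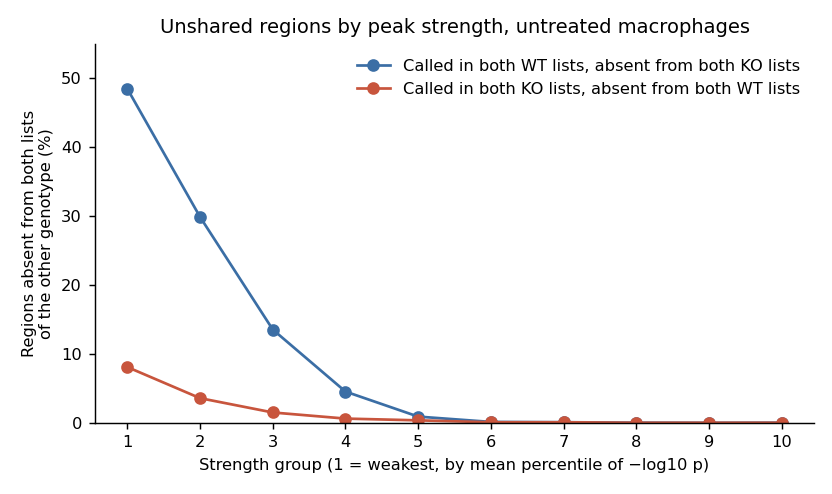
Regions called in both libraries of 1 genotype, divided into 10 groups by mean percentile of -log10 p (x axis), and the percentage of each group that was absent from both lists of the other genotype (y axis). In the weakest group 48.5% of WT regions were absent from KO and 8.09% of KO regions were absent from WT, and from group 6 on both percentages were at most 0.125%.

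Gene ends kept their peaks in KO more often than other places. Of the regions called in both WT lists, those at a gene end were called in both KO lists in 90.02% of cases and in neither in 4.13%, against 76.1% and 11.4% inside genes and 75.75% and 11.46% outside them. Gene-end peaks were stronger, with a median percentile of 76.2 in WT against 49.1 inside genes, and within the weakest group 40.6% of gene-end regions were absent from both KO lists, against 49.3% inside genes and 50.4% outside. Annotated promoter windows overlapped 4.596% of gained regions (25 of 544) and 4.47% of lost regions (203 of 4537), against 22.3% of the regions called in all 4 lists, leaving out chromosome 18, for which no promoters were listed here. Gained regions lay in gene-poorer surroundings than lost ones: the median number of protein-coding genes within the surrounding 1 Mb was 9 for gained, 12 for lost and 13 for regions called in all 4 lists. Windows with 2 genes or fewer held 45 of the gained regions (7.99%) and 239 of the lost (5.11%), against 4.63% of all regions. No test was made of these shares, because regions are not replicates.

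Lmna itself, the targeted gene, lies at chr3:88481148-88509932 and kept its main peaks in KO. The peak over 1 annotated start, at chr3:88503049-88503889, ranked at percentiles 93.3 and 92.0 in WT 1 and 2 and 93.5 and 96.0 in KO 1 and 2 among the regions called in all 4 lists. The peak at the gene end, chr3:88509761-88510438, ranked at 97.4 and 96.2 in WT and 98.9 and 98.7 in KO. Within the gene, the region at chr3:88484558-88484979 was gained, with within-list percentiles of 46.0 and 52.6 in KO 1 and 2, and the region at chr3:88483662-88484020 was lost, with percentiles of 2.05 and 24.8 in WT 1 and 2. These calls within the gene recurred with LPS: the gained region was called in both KO and no WT LPS library, and the lost one in both WT and no KO LPS library. Beside the gene, another gained region, chr3:88476518-88476753, was called in both WT and 1 KO LPS library. Another lost one, chr3:88512350-88512605, was called in 1 WT and no KO LPS library. These lists do not show whether Lamin-A was absent.

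Several of the strongest gained and lost regions lay around Lmna. Of the 436 regions within 5 Mb of the gene, 11 (2.52%) were gained and 44 (10.1%) were lost, against 0.910% and 7.64% of the regions farther away, and against 1.25% and 8.36% of those farther away on chromosome 3. These 11 gained regions had a median within-list percentile of 39.2, against 16.0 for the gained regions elsewhere, while the 44 lost regions had 22.0 against 17.4. The gained ones supplied 5 of the 25 strongest gained regions with a gene within 50 kb, and lost regions of the same window supplied 4 of the 25 strongest lost ones, where 0.714% of all regions lie in the window. The labels do not give the strain of either genotype, and its part in this pattern was not tested. With LPS, 5 of the 11 gained regions near Lmna were again called in both KO and no WT library, against 46 of the 552 farther away (8.33%). Of the lost regions near Lmna 8 of 44 (18.2%) were called in both WT and no KO LPS library, against 617 of the 4629 farther away (13.3%).

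Around Cd5l, which encodes a scavenger-receptor family protein secreted by macrophages, gained and lost regions alternated. The region at chr3:87334671-87335050 had percentiles of 73.0 and 64.3 in KO 1 and 2 and was called in both KO and no WT LPS library. The region at chr3:87330794-87331184 had 62.5 and 71.8 in KO, while the lost region between them, chr3:87331981-87332364, had 44.7 and 53.2 in WT 1 and 2 and was called in no LPS library. Dclk2, a doublecortin-like kinase gene, had more gained regions than any other gene, 3 of its 5, of which the strongest had percentiles of 61.0 and 75.4 in KO. Next to Fcrl1, an Fc receptor-like gene, a gained region at 43.0 and 49.0 in KO lay near a lost one at 75.5 and 79.6 in WT. The lost region at Sh3d19, an SH3-domain gene, stood at 68.6 and 65.7 in WT, and that at Fhdc1, a formin-homology gene, at 65.1 and 65.7. The gained regions at Cd5l (chr3:87334671-87335050), Dclk2 (the strongest of its 3) and Fcrl1 kept the same calls by genotype in all 4 LPS libraries. So did the lost regions at Fcrl1 and Sh3d19. The lost region at Fhdc1 was called in all 4, with -log10 p of 46.8 and 77.3 in WT and 12.99 and 15.53 in KO.

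Away from chromosome 3, the strongest gained region was in Pik3r2. At Pik3r2, a regulatory subunit of PI3-kinase, the KO percentiles were 46.2 and 62.1 and both KO but no WT LPS library held the region. At Trafd1, a feedback regulator of innate immune signalling, they were 49.2 and 53.4, with 1 KO and no WT LPS library. At Slc2a13, a myo-inositol transporter, they were 46.0 and 56.8, and at Coa4, a cytochrome c oxidase assembly factor, 49.6 and 52.5. Near Cdca7l, Sema6d, Trim67, Cpne2, Slc31a2 and Itpr2 the gained regions had mean percentiles of 43.9 to 53.6 in KO, but all 4 LPS libraries held a peak there. Of the 25 strongest gained regions on any chromosome, 5 were called in both KO and no WT LPS library, against 9.06% of all gained regions. Those at Cd5l, Dclk2, Lmna and Fcrl1 lay within 5 Mb of Lmna, and that in Pik3r2 was the only one elsewhere. The gained promoter region of Nfkbid was weak, at 7.62 and 4.78 in KO, and with LPS it was called in both WT and no KO library.

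Next to Mfng, which encodes a Notch-modifying glycosyltransferase, the strongest lost region had percentiles of 89.6 and 92.5 in WT. Both LPS libraries of each genotype held it, but with -log10 p of 308.8 and 233.9 in WT and 19.64 and 23.71 in KO. A call in all 4 LPS libraries therefore does not show equal strength. At Arhgap24 the lost region stood at 68.8 and 69.7, and near Tbx5, a T-box factor of heart and limb, at 68.2 and 67.8. The lost region over a start of Trim69, a TRIM-family ubiquitin ligase, stood at 70.6 and 54.6 and was the strongest of the 203 lost regions over an annotated promoter. Those at Tbx5 and at Galnt6 (54.9 and 58.0), a mucin-type glycosyltransferase, were also absent from KO and present in WT with LPS, whereas those near Mfng, Trim69, Ktn1, Tnfsf8, Sec24a, Usp25 and Ptpn22 were called in all 4 LPS libraries. Of the 25 strongest lost regions, 5 were called in both WT and no KO LPS library, against 13.4% of all lost regions. Those at Fcrl1 and Sh3d19, near Lmna, were among the 5.

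Counted by gene, 448 of the 14409 genes with a region (3.11%) had a gained one and 3311 (23%) had a lost one. Atp6v0d2, a subunit of the vacuolar proton pump of macrophages and osteoclasts, had 2 gained regions and no lost one among its 12, and 5 of its 9 regions called in all 4 lists ranked higher in KO. Colec12, a scavenger receptor, likewise had 2 gained, 0 lost and 3 ranked higher. The genes with the most lost regions differed in their total: Cux1 lost 6 of 39, Jazf1 6 of 19 and Zfp469 6 of 28. Foxp1 lost 5 of 46, Gse1 5 of 37, Mbnl1 5 of 27 and Runx3, a Runt-family transcription factor, 5 of 17. Map3k9 and Spred1 lost 5 of 14 each, and Uck2 5 of 11. Of all regions near a gene, 7.62% were lost.

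For the 37884 regions called in all 4 lists, ranks by -log10 p were taken within this common set, so that list length did not enter. By a rule of at least 10 percentile points between genotype means and no overlap between the libraries, 4425 regions (11.7%) ranked higher in KO and 4493 (11.9%) lower. Tested by limma on normal scores of the ranks, 0 regions passed an adjusted p of 0.05 and the smallest adjusted p was 0.146, while 5280 (13.9%) had an unadjusted p under 0.05. When limma let the variance follow the mean rank, 714 regions passed, 493 higher and 221 lower in KO. Ranking by fold enrichment gave 3 calls. The named shifts below are therefore descriptions of 2 libraries against 2, and their nearest gene is not shown to be their target.

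By normal-score difference, the largest shifts towards KO were regions near the bottom of the WT ranks. Normal scores stretch the ends of the ranking, so this measure favours such regions. In percentile points some were smaller, as near Hmgn2 (19.8). Near Tmem154, a transmembrane protein gene 43.8 kb away and within 5 Mb of Lmna, the percentiles were 2.35 and 0.659 in WT and 64.8 and 71.0 in KO, with a difference of 2.70 ± 0.21 (SE) normal-score units and an adjusted p of 0.146 by limma. Inside Abca1, the cholesterol exporter of macrophages, they were 2.31 and 0.0198 in WT and 43.2 and 39.6 in KO. Near Tgfbi, a secreted matrix protein, they were 0.0436 and 0.205 in WT and 38.2 and 25.7 in KO. The regions were chosen for having no overlap between genotypes. The regions near Tmem154 and Tgfbi were called in no WT LPS library and in both KO ones, and that in Abca1 was called in all 4.

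The other regions of this group lay at or near Slc16a7, Defb42, Kbtbd6, Gm52051, Hmgn2, Mxi1, Hexim2, Rfx8, Syngr1, Efhd2, Sik1 and Marchf4, with WT percentiles of 0.0224 to 10.6 and KO percentiles of 16.1 to 70.0. Mxi1, an antagonist of MYC, went from 2.65 and 4.47 to 67.4 and 65.9, and Sik1, a salt-inducible kinase, from 3.20 and 0.424 to 43.1 and 49.0. Neither was called in a WT LPS library. Efhd2, which encodes a calcium-binding protein, was the sole region of the 15 at a gene end, at 2.98 and 3.41 in WT and 59.4 and 63.7 in KO.

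Towards WT, the largest normal-score differences were near 1700012A03Rik (71.0 and 69.5 in WT, 14.1 and 1.97 in KO) and in Fam83g (27.4 and 14.2 against 0.235 and 0.207). The next was near Tlr1, a receptor for bacterial lipopeptides (37.1 and 30.7 against 0.176 and 2.92). In percentile points Fam83g (-20.6) and Cnp (-12.1) differed less than the promoter region of Ifit3 (-44.8), which is outside these 15. At Slfn9, a schlafen-family gene, the region at the gene end stood at 37.7 and 34.8 in WT and 6.29 and 0.152 in KO. In Inpp4b, a phosphoinositide phosphatase, it stood at 55.8 and 51.5 against 11.1 and 1.97, and in Tcf7l2, a Wnt-pathway transcription factor, at 33.3 and 28.7 against 1.81 and 1.03. Ap1ar, Cnp, Abhd2, Gprc5a, Hsfy2 and Samd7 made up the rest with a gene within 50 kb, 3 regions had none, and all 15 were called in both WT LPS libraries.

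**Figure D2:**
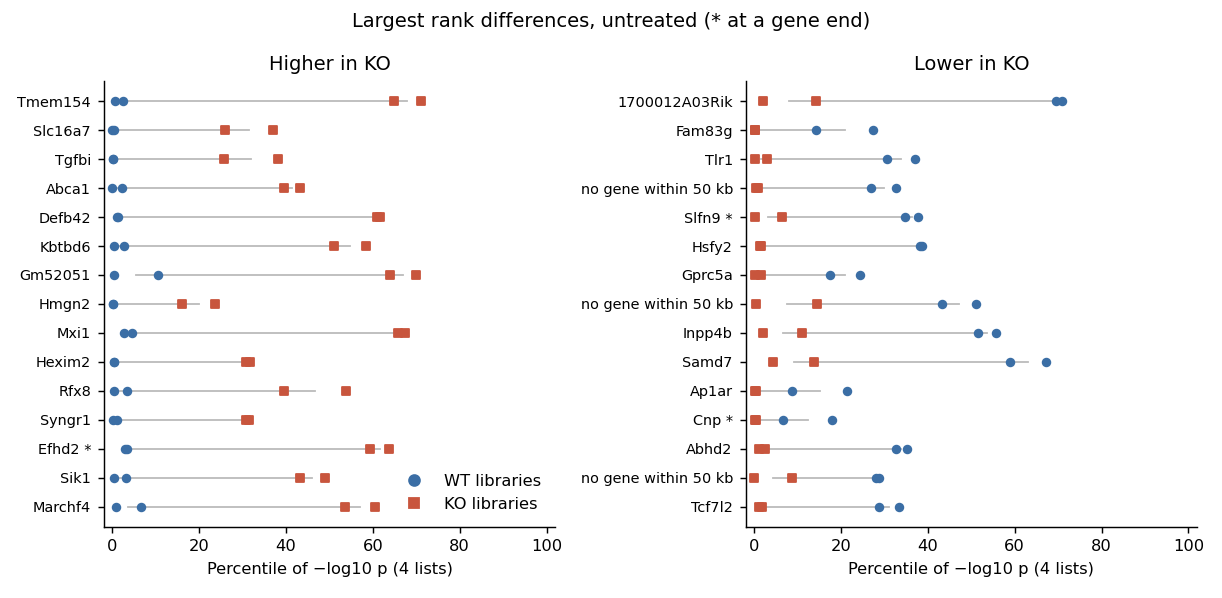
Percentile of -log10 p among the 37884 regions called in all 4 lists (x axis) for the 15 regions with the largest limma difference in each direction among those with no overlap between genotypes, each row named by its nearest gene. Circles are the 2 WT libraries, squares the 2 KO libraries, and the grey line joins the means; regions higher in KO lie at 10.6 or below in WT.

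By gene list, interferon-response regions leaned lower in KO by -log10 p but not by fold enrichment. Of 92 regions called in all 4 lists near its genes, 19 (20.7%) ranked lower in KO and 4 (4.35%) higher, against 11.6% and 11.4% of the regions near any gene, and the median difference was -3.88 percentile points against -0.14. The mean percentile of the 92 was 58.7 and 59.1 in WT 1 and 2 and 56.0 and 52.98 in KO 1 and 2, so the genotypes did not overlap. At gene ends 11 of 30 ranked lower (36.7%) and 0 higher, against 8.6% and 6.38% of gene-end regions in general. The count depends on the measure of strength: ranked by fold enrichment, 11 (11.96%) were lower and 10 (10.9%) higher, close to the 12.3% and 13.6% of regions near any gene, and the list did not lean. Of these 11, 9 were among the 19. Without KO library 1, 31 of the 92 were lower by -log10 p. The rule is looser with 1 KO library: of all 37884 regions, 6278 were then lower and 6099 higher, against 4493 and 4425 with all libraries.

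The leading interferon regions had lower values in KO by either measure. At the promoter of Ifit3, an antiviral RNA-binding protein, the percentiles were 65.8 and 62.9 in WT and 22.3 and 16.8 in KO, with fold enrichments of 12.8 and 11.9 in WT and 6.58 and 6.54 in KO (adjusted p = 0.146 by limma). At Isg15, a ubiquitin-like modifier, they were 50.5 and 51.6 in WT and 24.9 and 19.9 in KO, with fold enrichments of 5.22 and 5.28 in WT and 3.83 and 3.65 in KO. At Gbp2, an interferon-induced GTPase, they were 68.5 and 62.2 against 37.9 and 35.5, with fold enrichments of 11.3 and 10.1 in WT and 6.84 and 7.38 in KO. Each of these promoters holds the ISRE letters printed above. Ranked by fold enrichment, Isg15 stood at percentiles of 10.1 and 10.8 in WT and 2.67 and 1.625 in KO, short of the 10-point rule. The absence of overlap by -log10 p was part of the rule that chose these regions.

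At Oasl2, an oligoadenylate synthetase-like gene, the percentiles were 73.4 and 76.0 in WT and 51.3 and 43.2 in KO, and at Irf7, a transcription factor of the interferon loop, 72.2 and 69.2 against 60.3 and 48.9. Regions near Irf1, Gbp3, Usp18, Ifit2, Ifnar1, Ifnar2, Irgm1, Trim30a, Ifnb1, Zbp1 and Cmpk2 also ranked lower, and Irf2 had 1 region lower and 2 higher. The promoter region of Irgm1 differed by -14.2 points by -log10 p, but by fold enrichment its percentiles were 36.0 and 30.2 in WT and 36.2 and 31.01 in KO. At Irf7 the fold percentiles also overlapped, at 27.8 and 23.5 in WT and 30.7 and 16.5 in KO. So did those at Usp18, Zbp1 and Cmpk2, in a region of Ifit2 and in the lower region of Irf2. The other lower region of Irgm1, starting at chr11:48872110, was higher in KO by fold percentile with no overlap, at 47.05 and 44.38 in WT and 51.77 and 50.09 in KO. The list also had 2 gained regions (1.39%), which included one in Ifnar2, and 11 lost (7.64%), which included the promoter of Gbp5 at within-list percentiles of 36.4 and 20.1 in WT. Another region near Gbp5 was called in all 4 lists and ranked higher in KO, at 23.95 and 40.2 in WT and 50.9 and 40.4 in KO. The lost promoter region of Tgtp2, which is outside the list, stood at 34.1 and 24.1.

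**Figure D3:**
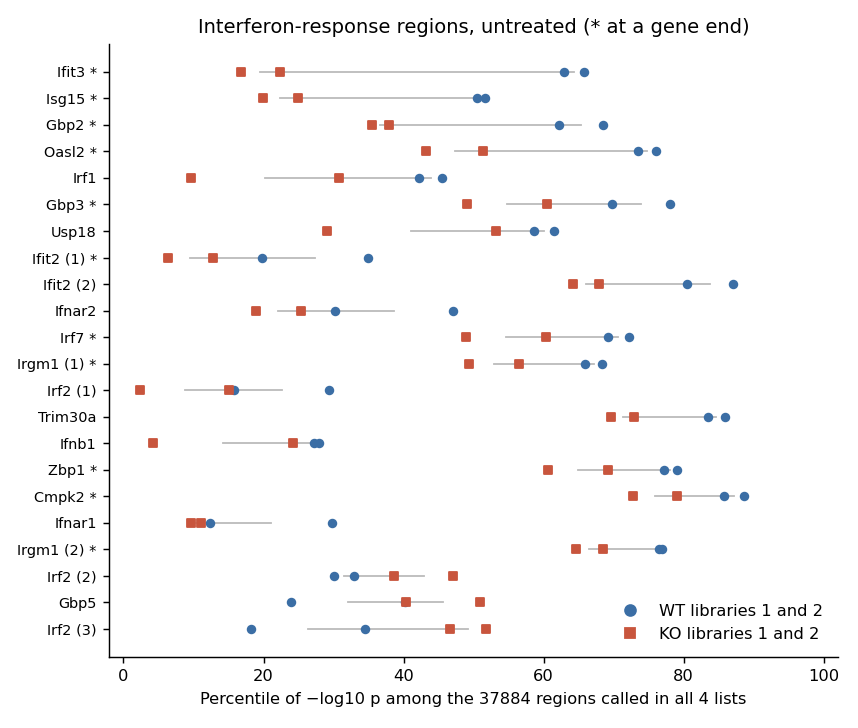
Percentile of -log10 p among the 37884 regions called in all 4 lists (x axis) for interferon-response regions that differed by 10 or more points with no overlap, in order of the difference. Circles are WT libraries and squares KO libraries; the 19 regions lower in KO and 3 of the 4 higher ones are drawn.

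The same lean appeared when promoters were sorted by sequence and not by gene name, a comparison added after the gene values were seen. Of 296 regions over a promoter with the ISRE letters, 51 (17.2%) ranked lower in KO and 17 (5.74%) higher, while over the other promoters 8.16% ranked lower and 5.42% higher. The list above supplied 5 of the 51, and the others included the promoters of Parp11 (69.9 and 69.5 in WT, 47.8 and 18.2 in KO), Ifitm3 (36.1 and 43.3 against 17.9 and 3.99) and Ddx60 (36.4 and 51.9 against 29.2 and 11.8). Apobec3, a cytidine deaminase that restricts retroviruses, went from 62.8 and 71.1 to 48.4 and 41.6. The 51 were sorted by letters alone, and also included promoters of Tcirg1 (49.6 and 34.7 against 1.90 and 5.63), Fancg, Vegfa, Vhl and Rack1. With LPS, Parp11 and Apobec3 ranked lower in KO, and Ifitm3, Ddx60 and Tcirg1 higher. Ranked by fold enrichment, 13.9% of the 296 were lower and 11.49% higher, against 6.83% and 12.6% of all regions over a promoter. The other 8 letter strings searched on both strands were those of PU.1 (GAGGAAGT), AP-1 (TGANTCA), NF-kB (GGGA, any 4 bases, CC), the E-box (CACGTG), NRF1 (GCGC on both sides of AT), the GC box (GGGCGG), CRE (TGACGTCA) and C/EBP (TTGCNNAA). The share of regions ranked lower ran from 5.80% (E-box) to 9.61% (NF-kB) over promoters with the letters, and from 8.01% to 9.78% over promoters without them. By promoter, the ISRE letters stood in 6.78% of those with a region ranked lower (58 of 855), 3.42% of those with one ranked higher (19 of 556), 2.60% of those with a lost region (6 of 231) and 10.3% of those with a gained one (3 of 29).

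Macrophage identity genes had regions on both sides. Of their 161 regions called in all 4 lists, 23 (14.3%) ranked higher in KO and 14 (8.70%) lower, near the 11.4% and 11.6% of all genes. Without KO library 2, which loosens the rule, the counts were 21 higher and 23 lower. Those of all 37884 regions were then 5627 higher and 5713 lower. The mean percentile of the 161 was 55.4 and 54.1 in WT and 55.4 and 56.6 in KO, so the genotypes overlapped. The list had 7 gained regions (2.79%, against 0.863% for all genes) and 20 lost (7.97%, against 7.62%). With lists of equal length it had 14 gained and 4 lost, where gained and lost regions made up 2.75% and 2.98% of all regions. In a region 9.17 kb from Zeb2, a zinc-finger factor of macrophage identity, the percentiles were 7.89 and 7.82 in WT and 48.0 and 43.0 in KO. At the end of Siglec1, a sialic-acid receptor of macrophages, they were 2.87 and 2.13 against 29.0 and 35.4, and near Marco, a scavenger receptor, 12.6 and 16.1 against 52.3 and 41.1. In Mertk, the receptor for apoptotic cells, they were 49.97 and 34.9 against 68.9 and 66.9. These 4 regions also ranked higher in both KO than in both WT LPS libraries. Over the list, 19 of the 23 higher regions were called in all 8 lists, and with LPS 12 ranked higher, 2 lower and 5 overlapped. Of the 14 lower regions 11 were called in all 8 lists, and with LPS 2 ranked lower, 2 higher and 7 overlapped. In the other direction, a region near Itgam, the CD11b integrin chain, went from 66.9 and 63.0 to 37.9 and 39.0, and 1 at the end of Cx3cr1, the fractalkine receptor, from 52.6 and 52.4 to 32.3 and 37.5. Gained regions lay at Cd5l (2), Irf8, Lpl, Marco, Cebpb and Runx1. Ranked by fold enrichment, 28 of the 161 (17.4%) were higher and 14 (8.70%) lower, against 13.6% and 12.3% of regions near any gene.

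Lysosome and antigen-presentation genes had regions on both sides, with more of them higher in KO. They had 4 lost (2.78%, against 7.62%) and 5 gained (3.47%, against 0.863%) of 144, and with lists of equal length 3 lost and 6 gained, where lost and gained regions made up 2.98% and 2.75% of all regions. Of 102 called in all 4 lists 19 (18.6%) ranked higher and 9 (8.82%) lower in KO, against 11.4% and 11.6% near any gene. Atp6v0d2 alone supplied 5 of the 19, and 2 of the 5 gained regions. The end of Atp6v0d2 stood at 10.5 and 4.69 in WT and 64.9 and 60.6 in KO, with fold enrichments of 5.43 and 4.77 in WT and 8.78 and 8.59 in KO, and with LPS both KO and no WT library held a peak there. Near Ctsb, the lysosomal protease cathepsin B, the percentiles were 44.2 and 52.0 against 74.4 and 74.5, and in Tfeb, the master transcription factor of lysosomes, 7.71 and 11 against 33.0 and 30.6. In Mitf, a related factor, they were 41.8 and 20.02 against 55.04 and 62.3. The 9 lower regions lay near class II and antigen-processing genes (Ciita, H2-Eb1, 2 at H2-Aa, H2-Ab1, Tapbp, Nlrc5) and near Cd86 and Lamp1, but H2-Aa, H2-Eb1, Nlrc5 and Cd86 also had regions that ranked higher. Ranked by fold enrichment, 18 were higher and 9 lower, with 9 of the 18 among the 19, or 17.6% and 8.82% against 13.6% and 12.3%.

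The nuclear lamina list also leaned lower by -log10 p. Of 38 regions of the nuclear lamina and lamin-processing list, 8 ranked lower (21.1%) and 2 higher (5.26%) in KO, against 11.6% and 11.4% near any gene. By fold enrichment 6 were lower (15.8%, against 12.3%) and 5 higher (13.2%, against 13.6%). At the end of Zmpste24, the protease that matures prelamin A, the percentiles were 36.4 and 62.2 in WT and 32.7 and 13.8 in KO, and at Tor1a, a lumenal ATPase of the nuclear envelope, 53.8 and 62.6 against 43.9 and 37.6. Regions at Lmnb1, Lmnb2, Lemd2, Fnta, Fntb and Lmna made up the rest of the 8, and the 2 higher regions were at Lmnb1 and Tor1a. Both gained regions of the list were at Lmna. The LINC complex and nuclear pore list had 5 lower (12.8%, against 11.6%) and 1 higher (2.56%, against 11.4%) of 39. The lower side included the Syne2 and Sun1 genes of the bridge to the cytoskeleton. The list had 0 gained regions (against 0.863%) and 7 lost (10.1%, against 7.62%). By fold enrichment 4 were lower (10.3%, against 12.3%) and 5 higher (12.8%, against 13.6%).

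Chromatin repressor genes had regions on both sides. Of 47 regions of heterochromatin genes 9 ranked higher (19.15%) and 7 lower (14.9%), against 11.4% and 11.6% near any gene. In Dnmt3a, a DNA methyltransferase, lay 5 of the 9 and 2 of the 7, and 1 intragenic region went from 48.8 and 54.2 in WT to 78.0 and 86.1 in KO. Of 75 regions of actin, MRTF-SRF and YAP genes 10 ranked higher (13.3%) and 4 lower (5.33%). Of these, 1 in Mrtfa, the actin-sensing coactivator of SRF, went from 3.68 and 2.87 to 32.0 and 20.7.

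Genes of LPS sensing and of the inflammatory output had regions on both sides in cells that had received no LPS. The LPS-sensing and NF-kB list had 13 higher (10.7%) and 16 lower (13.2%) of 121, and the cytokine list 12 (12.2%) and 15 (15.3%) of 98. These shares are near the 11.4% and 11.6% of regions near any gene. Ly96, the MD-2 partner of TLR4, went from 29.9 and 43.6 in WT to 5.61 and 4.40 in KO in an intragenic region. A region near Ccl4, a chemokine gene, went from 61.1 and 58.2 to 27.4 and 29.7, and 1 at the end of Acod1, the itaconate-producing enzyme, from 45.1 and 56.5 to 24.2 and 28.7. On the other side, a region near Il10, an anti-inflammatory cytokine, went from 1.38 and 1.01 to 27.8 and 23.1, and 1 in Irak2, a kinase of the TLR pathway, from 2.11 and 5.11 to 32.5 and 54.4. By fold enrichment the cytokine list had 22 higher (22.4%, against 13.6%) and 10 lower (10.2%, against 12.3%).

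In the remaining lists the counts were small or on both sides. Near any gene, 11.4% of regions ranked higher and 11.6% lower by -log10 p, and 13.6% and 12.3% by fold enrichment. Alternative activation, scavenging and lipid handling had 13 higher (12.15%) and 11 lower (10.3%) of 107, with 2 regions of Abca1 higher and 1 lower. Cell cycle and replication had 9 (11.1%) and 11 (13.6%) of 81 by -log10 p but 16 (19.8%) and 6 (7.41%) by fold enrichment. DNA damage and p53 had 5 (7.69%) and 6 (9.23%) of 65. Marker lists of other cell types had few common regions: dendritic cells 2 higher and 6 lower of 32, stromal and endothelial cells 4 and 0 of 20, neutrophils and mast cells 2 and 2 of 12, T and NK cells 1 and 0 of 10, B cells 0 and 1 of 9, and erythroid cells and megakaryocytes 2 and 1 of 8. Their part in the shifts above was not tested.

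**Figure D4:**
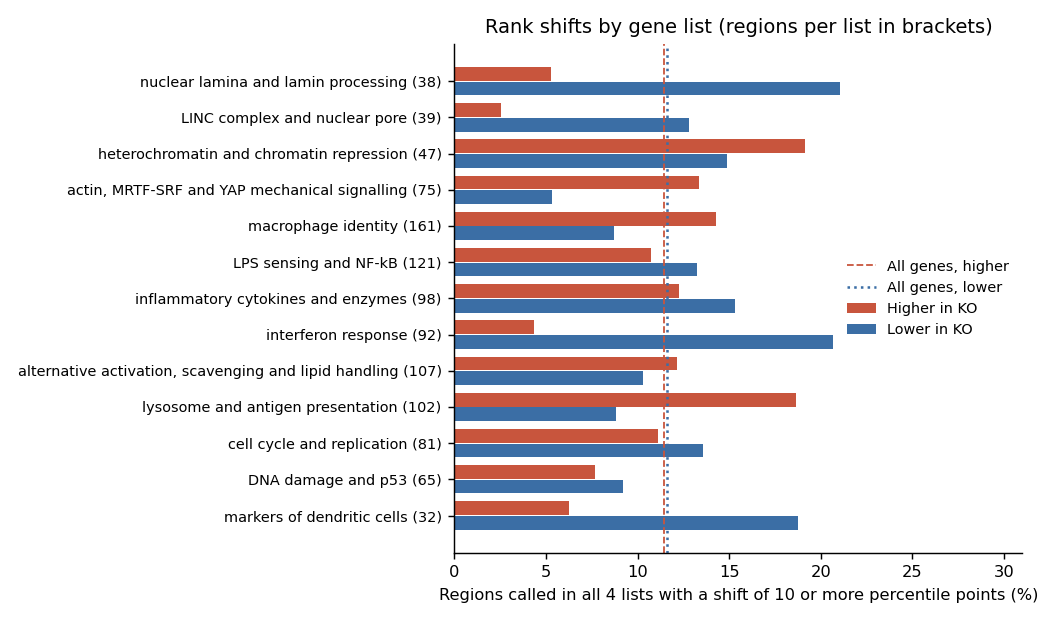
Percentage of each list's regions called in all 4 lists (number in brackets) that ranked at least 10 percentile points higher or lower in KO with no overlap between libraries, for the 13 lists with 30 or more such regions. Dashed and dotted lines mark the regions near any gene, 11.4% higher and 11.6% lower; interferon response and nuclear lamina reach 20.7% and 21.1% lower.

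The LPS libraries, which took no part in the choice of regions, held the untreated differences in part. Of the 563 gained regions, KO LPS libraries 1 and 2 held 59.9% and 53.6% and WT LPS libraries 1 and 2 held 48.5% and 43.0%. Of the 4673 lost regions, KO LPS libraries held 30.8% and 24.4% and WT LPS libraries 57.5% and 50.5%. The genotypes did not overlap in either share, with differences of 11.02 and -26.4 percentage points and an exact permutation p of 0.333 for each, the smallest possible. The gained difference depended on list length: with untreated lists of equal length, KO LPS libraries held 61.8% and 54.4% of 1440 gained regions and WT LPS libraries 59.4% and 52.1%, so the genotypes overlapped and differed by 2.33 points. For 1560 lost regions the shares were 40.7% and 32.3% in KO and 69.9% and 62.8% in WT. The LPS lists themselves were not shortened, and KO LPS libraries 1 and 2 held 48772 and 44632 peaks against 58601 and 54324 in WT. The part of LPS list length in these differences was not tested. KO LPS libraries also held fewer of the regions called in all 4 untreated lists, at 88.1% and 83.8% against 94.2% and 92.3%. All 4 LPS libraries held 179 of the gained regions and 858 of the lost, while 51 gained (9.06%) and 625 lost (13.4%) regions kept the full untreated pattern.

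**Figure D5:**
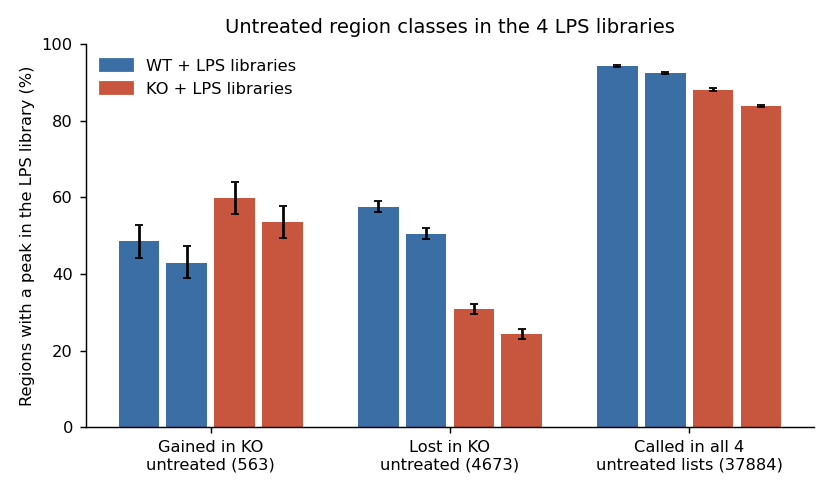
Percentage of the 563 gained, 4673 lost and 37884 common untreated regions that held a peak in each LPS library (bars, WT libraries 1 and 2 then KO libraries 1 and 2), with exact Clopper-Pearson 95% intervals that cover counting error only. KO bars are higher for gained regions (59.9% and 53.6% against 48.5% and 43.0%) and lower for lost ones.

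Rank shifts were held in a similar way. Of the 3421 regions higher in KO untreated that were called in all 8 lists, 49.4% ranked higher in both KO than in both WT LPS libraries and 7.16% lower, against 22.5% and 22.8% of all 30507 regions called in all 8. Of the 3355 lower regions, 41.2% ranked lower with LPS and 8.53% higher. By limma, 0 regions differed between genotypes with LPS at an adjusted p of 0.05 (3863 at an unadjusted p under 0.05), and 0 differed between untreated and LPS in the size of the genotype effect (2263 unadjusted).

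For the interferon regions the order with LPS was mixed. Of the 19 that ranked lower untreated, 18 were called in all 8 lists, and with LPS 5 ranked lower in KO, 5 higher and 8 overlapped. Over the 81 interferon regions called in all 8 lists, the mean percentile was 57.9 and 58.0 in untreated WT, 54.6 and 51.5 in untreated KO, 61.1 and 60.6 in WT with LPS and 60.1 and 62.5 in KO with LPS. Ifit3, Oasl2 and Irf7 stayed lower in KO with LPS, and Isg15, Gbp2, Zbp1 and the promoter region of Irgm1 ranked higher in KO. Of the 51 lower regions over ISRE promoters, 46 were called in all 8, and 21 ranked lower with LPS, 7 higher. The difference between untreated and LPS was not past the limma threshold for any of these regions.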

How the data were processed

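Open chromatin was mapped by ATAC-seq in 8 libraries, of which the 4 untreated ones form the comparison. Reads were aligned with BWA 0.7.12 to mm10 and peaks called with MACS2, per the submitters' processing notes. The filters behind the lists are not given in the sources used here. The deposited lists hold, for each library and peak, a score (10 times -log10 p in the deposited values), a fold enrichment (ratio of signal at the summit), -log10 p and -log10 q, and the distance from peak start to summit. These are the authors' own values for each peak, and were used to describe and rank peaks within a list.

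Peaks on chromosomes 1 to 19 were merged where they overlapped by 1 bp, and each region was assigned to the nearest protein-coding gene within 50 kb. A gene end is within 1 kb of either end. Ranks were tested by limma 3.58.1 (R 4.3.3) on normal scores with Benjamini-Hochberg adjustment, and single values per library by exact two-sided permutation. The limma and counting steps were tested on simulated data. Python 3.11.15, numpy 2.4.6, pandas 2.3.3, scipy 1.17.1 and matplotlib 3.10.9 were used. Samples were grouped by their titles. The source label of the LPS samples names both LPS and untreated, and the titles were followed.

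The members and the 18 gene lists (368 genes, 356 matched) were chosen with earlier results of these data known. Named regions are the 25 gained and 25 lost with the highest mean percentile and a gene within 50 kb. Others are the 15 with the largest normal-score difference each way and no overlap. The 10 genes with the most gained or lost regions and members of the lists were also named. Promoter sequences come from RefSeq (GRCm38.p6), which gave one for 16452 of 20665 genes. Alternatives were an overlap of 100 bp, -log10 p of at least 10 or 20, lists of equal length, merging over 8 lists, ranking by fold enrichment or summed -log10 p, limma with a variance trend or a replicate block, and leaving out each library. Results for 1 member of the interferon list are not reported here by name.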

Additional observations from a re-analysis of the deposited data

Results flagged for a closer look

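In 4 counts, regions that differed one way between genotypes in untreated cells differed the other way with LPS. Of the gained regions, 9 were called in both WT and no KO LPS library, among them those near Mfsd6, Epb41l4b, Rbm47, Zfp777, Nfkbid, Tha1 and Asap1. Of the lost regions, 7 were called in both KO and no WT LPS library, among them those near Insig2, Hmcn1, Cry1, Srcin1 and Riok2. Of the regions that ranked higher in KO untreated, 245 ranked lower in both KO than in both WT LPS libraries, and of those that ranked lower, 286 ranked higher. The difference was not tested for the gained and lost regions. For regions called in all 8 lists, the limma interaction of genotype and treatment gave 0 of 30507 at an adjusted p of 0.05, with a smallest adjusted p of 0.274 and 2263 at an unadjusted p under 0.05.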

How the results depend on the processing

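The counts of gained and lost regions depended on list length. With equal numbers of peaks 1440 were gained and 1560 lost, and 1121 and 1292 genes had such a region. Limiting the WT lists to the shortest KO list left 1357 lost. Leaving out 1 library at a time gave 981 to 2174 gained, the highest without KO library 1, and 6831 to 8783 lost, the highest without WT library 1. Each such step drops 1 condition of the rule, so the higher counts do not measure dependence on that library. With a 100 bp overlap, a -log10 p of at least 10 or 20, or merging over 8 lists, the counts were 572, 565, 465 and 555 gained and 4660, 4654, 3878 and 4639 lost.

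The 0 limma calls became 3 when ranked by fold enrichment and 714 with a variance trend. A replicate block gave 0 (4935 unadjusted), and with LPS 0 (3755 unadjusted). Same-numbered libraries shared only a number, with a correlation of deviations of -0.02. Ranked by fold enrichment, interferon regions were 11 lower and 10 higher. Leaving out 1 library at a time gave 17 to 31 interferon regions lower, 9 to 15 lysosome regions lower (21 to 26 higher) and 19 to 23 macrophage identity regions lower (21 to 29 higher). The rule is looser with 1 library in a group. Over all 37884 regions the same steps gave 5628 to 6278 lower and 5513 to 6099 higher, against 4493 and 4425. Without KO library 2 the macrophage identity list had more regions lower (23) than higher (21). These list alternatives were chosen after seeing the data. Of 72 alternative counts of gained or lost regions in lists, 26 moved by over 1.5 times. With equal numbers of peaks in the untreated lists, the gained regions held by LPS libraries differed by 2.33 percentage points between genotypes, against 11.02. Depth is unknown, so a missing peak could not be given a detection limit.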
